A study of Mus musculus with 9 samples.

Results

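The Dock genes code for a family of guanine exchange factors, large proteins that load small GTPases of the Rac and Cdc42 type with GTP and so switch them on. The 9 genes described here were Dock1, Dock3, Dock4, Dock5, Dock6, Dock8, Dock9, Dock10 and Dock11, taken by symbol from the 40213 genes of the count files. All 9 passed the filter on low counts, which left 16106 genes. Dock10 was singled out because its values were higher with exercise, and the others were taken as its family, whatever their values. For that reason the values of Dock10 are given as a description, with no test, and the tests concern the other 8 genes. Other members of the family are not analysed here.

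The tissue was ventral hippocampus of C57BL/6J males of wild-type genotype (age at housing 8 weeks), and each of the 9 libraries came from 1 mouse. Sedentary controls (SED, 3 mice) had no treatment. Stress-susceptible mice (SUS, 3 mice) were restrained in tubes for 2 hours a day on 14 days. The exercised group (SUS_LE, 3 mice) was also stress-susceptible, and treadmill running at low intensity for 2 weeks followed its restraint. The scoring of susceptibility and the delay before dissection are not given in the sources used here. All libraries carry batch number 1.

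Dock proteins differ from the classical Dbl type of exchange factor: their catalytic part is a Dock homology region, and another such region binds membrane phosphoinositides. They are sorted into subfamilies by sequence. Dock1 and Dock5 (subfamily A) and Dock3 and Dock4 (subfamily B) act on Rac and work with the adaptor Elmo. Dock6 and Dock8 (subfamily C) act on Rac or Cdc42, and Dock9, Dock10 and Dock11 (subfamily D, also called zizimins) act mainly on Cdc42. In neurons Rac and Cdc42 drive branched actin assembly, on which the growth of axons, dendrites and dendritic spines depends.

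The promoters of Dock10 and Dock11 are shown because Dock10 is the gene the others were grouped around and Dock11 had the largest tested differences in the comparisons that involve SUS. RefSeq (GRCm38.p6) gave promoters for 8 of the 9 genes, 11 starts in all, and the 250 bases before each start were searched on both strands. Capitals mark GGGCGG or its reverse complement, the GC box bound by Sp factors. The Dock10 windows are chr1:80758554-80758803 and, for a start inside the gene, chr1:80665353-80665602, both on the minus strand, and the Dock11 window is chrX:35888582-35888831 on the plus strand. These coordinates are not of the build the count files were made on (GRCm39).
Dock10, outer start: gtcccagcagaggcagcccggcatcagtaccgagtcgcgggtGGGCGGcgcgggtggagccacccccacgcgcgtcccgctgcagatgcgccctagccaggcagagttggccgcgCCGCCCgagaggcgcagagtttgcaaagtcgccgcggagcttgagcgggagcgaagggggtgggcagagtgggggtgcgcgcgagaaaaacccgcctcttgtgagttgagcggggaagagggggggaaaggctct
Dock10, inner start: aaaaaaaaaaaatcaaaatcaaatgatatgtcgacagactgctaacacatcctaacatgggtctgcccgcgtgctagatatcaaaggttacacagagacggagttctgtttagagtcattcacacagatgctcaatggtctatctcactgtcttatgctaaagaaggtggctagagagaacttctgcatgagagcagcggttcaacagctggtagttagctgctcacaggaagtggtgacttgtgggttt
Dock11: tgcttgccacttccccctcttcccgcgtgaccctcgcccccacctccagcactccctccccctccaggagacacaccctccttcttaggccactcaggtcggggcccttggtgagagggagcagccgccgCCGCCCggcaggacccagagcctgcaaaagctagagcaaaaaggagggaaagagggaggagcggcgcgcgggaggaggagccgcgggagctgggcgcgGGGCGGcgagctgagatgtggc
The outer Dock10 window held 2 GC boxes, 27 CpG and 70.4% GC, and the Dock11 window 2 GC boxes, 18 CpG and 69.6% GC. The inner Dock10 window held 0 GC boxes, 5 CpG and 43.2% GC. Of all 32851 windows of this length 32.7% held a GC box, and the medians were 6.0 CpG and 52.4% GC. The cyclic AMP element TGACGTCA (1.55% of all windows), the E-box CACGTG (6.02%) and the glucocorticoid palindrome core ACANNNTGT (5.84%) were found in 0 of these 3 windows. Among the windows not shown, 1 of Dock9 (chr14:121698418-121698667) held 1 ACANNNTGT. Another window of Dock9 (chr14:121738930-121739179) held 1 CACGTG. The count files give 1 value per gene symbol, so transcripts from the outer and the inner start of Dock10 cannot be told apart.

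Levels are given as CPM, counts scaled to library size with TMM factors. Where 3 values are given for a group, they are those of mice 1, 2 and 3. To compare genes they were divided by the length of the longest protein-coding transcript, which gives CPM per kb. Dock9, which promotes dendrite growth through Cdc42, stood highest at 38.7 ± 2.60 CPM per kb (SD, n = 9 libraries), followed by Dock4 at 31.6 ± 3.22. Dock3, a Rac exchange factor found mostly in neurons, stood at 21.3 ± 1.22 CPM per kb, and Dock10, known in dendritic spines and in lymphocytes, at 10.4 ± 1.12. Dock1, which works with Elmo in cell migration and the engulfment of dying cells, stood at 5.47 ± 0.477 CPM per kb and Dock6 at 4.62 ± 0.528. Dock11 at 2.61 ± 0.382, Dock5 at 1.20 ± 0.227 and Dock8, an immune cell gene, at 0.608 ± 0.0838 CPM per kb were the lowest. Over the 9 libraries the ranges of neighbours in this order overlapped for Dock9 and Dock4 (35.4 to 42.0 and 26.4 to 37.3 CPM per kb) and for Dock1 and Dock6 (4.85 to 6.32 and 3.98 to 5.36). Those of the other neighbours did not overlap. The depth behind these levels ran from 52 to 79 counts per library for Dock8 to 4182 to 5247 for Dock9.

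**Figure D1:**
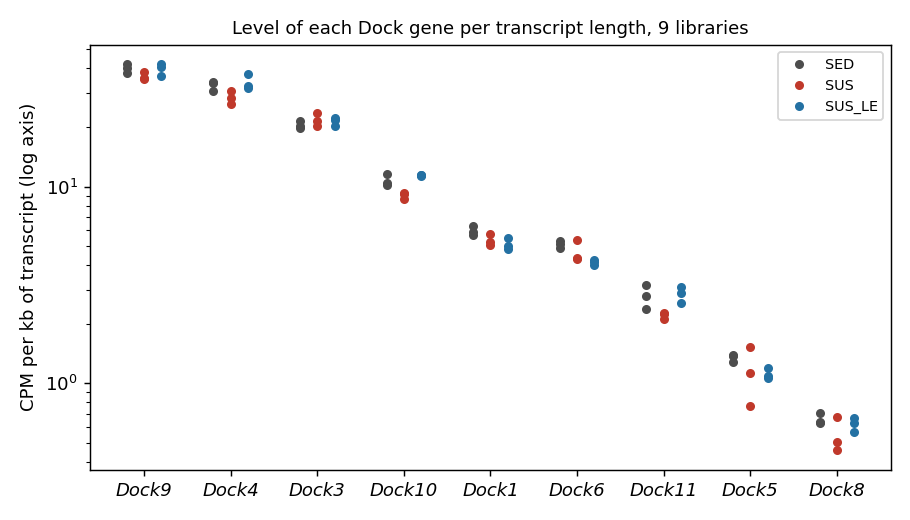
Level of each Dock gene in CPM per kb of transcript (log axis), 1 point per library, coloured by group. Dock9 and Dock4 form the top of the order, and Dock8 at 0.608 CPM per kb the bottom, in all 3 groups.

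The 3 genes of subfamily D had their lowest means in SUS, the restrained mice without exercise. CPM values of Dock10 were 83.1, 73.8 and 75.2 (SED), 66.8, 66.4 and 62.4 (SUS) and 82.2, 81.7 and 82.6 (SUS_LE). All 3 SUS values were below all 6 others, and the SUS_LE values lay within the SED range. The means were 77.4 ± 4.99 CPM in SED, 65.2 ± 2.42 in SUS and 82.2 ± 0.462 in SUS_LE (SD, n = 3 each). The log2 fold change was 0.33 (26.0% higher) for SUS_LE against SUS, the contrast Dock10 was picked on. It was −0.25 for SUS against SED and 0.09 for SUS_LE against SED. Each of these shares libraries with the contrast of the choice.

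Dock11 is a Cdc42 exchange factor best known in lymphocytes. CPM values of Dock11 were 21.1, 16.0 and 18.5 (SED), 15.2, 14.2 and 15.0 (SUS) and 17.1, 20.7 and 19.1 (SUS_LE). As with Dock10, the 3 SUS values were the lowest of the 9 and the SUS_LE values lay within the SED range. The log2 fold change of Dock11 was −0.32 (SE 0.11, 95% confidence interval −0.56 to −0.09, edgeR adjusted p = 0.216) for SUS against SED. For SUS_LE against SUS it was 0.36 (SE 0.11, 0.13 to 0.59, edgeR adjusted p = 0.171), and neither passed the threshold of 0.05 over all genes tested. SUS_LE against SED gave 0.03 (−0.19 to 0.26, edgeR adjusted p = 0.978). Here the interval allows a difference of either sign.

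CPM values of Dock9 were 326.8, 304.9 and 340.8 (SED), 289.2, 308.9 and 286.6 (SUS) and 327.6, 340.9 and 296.7 (SUS_LE). SUS 2 overlapped SED 2, and SUS_LE 3 lay below SUS 2. The log2 fold change of Dock9 was −0.14 (SE 0.06, edgeR adjusted p = 0.332) for SUS against SED and 0.13 (SE 0.06, edgeR adjusted p = 0.361) for SUS_LE against SUS. For SUS_LE against SED it was −0.01 (SE 0.06, edgeR adjusted p = 0.987).

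**Figure D2:**
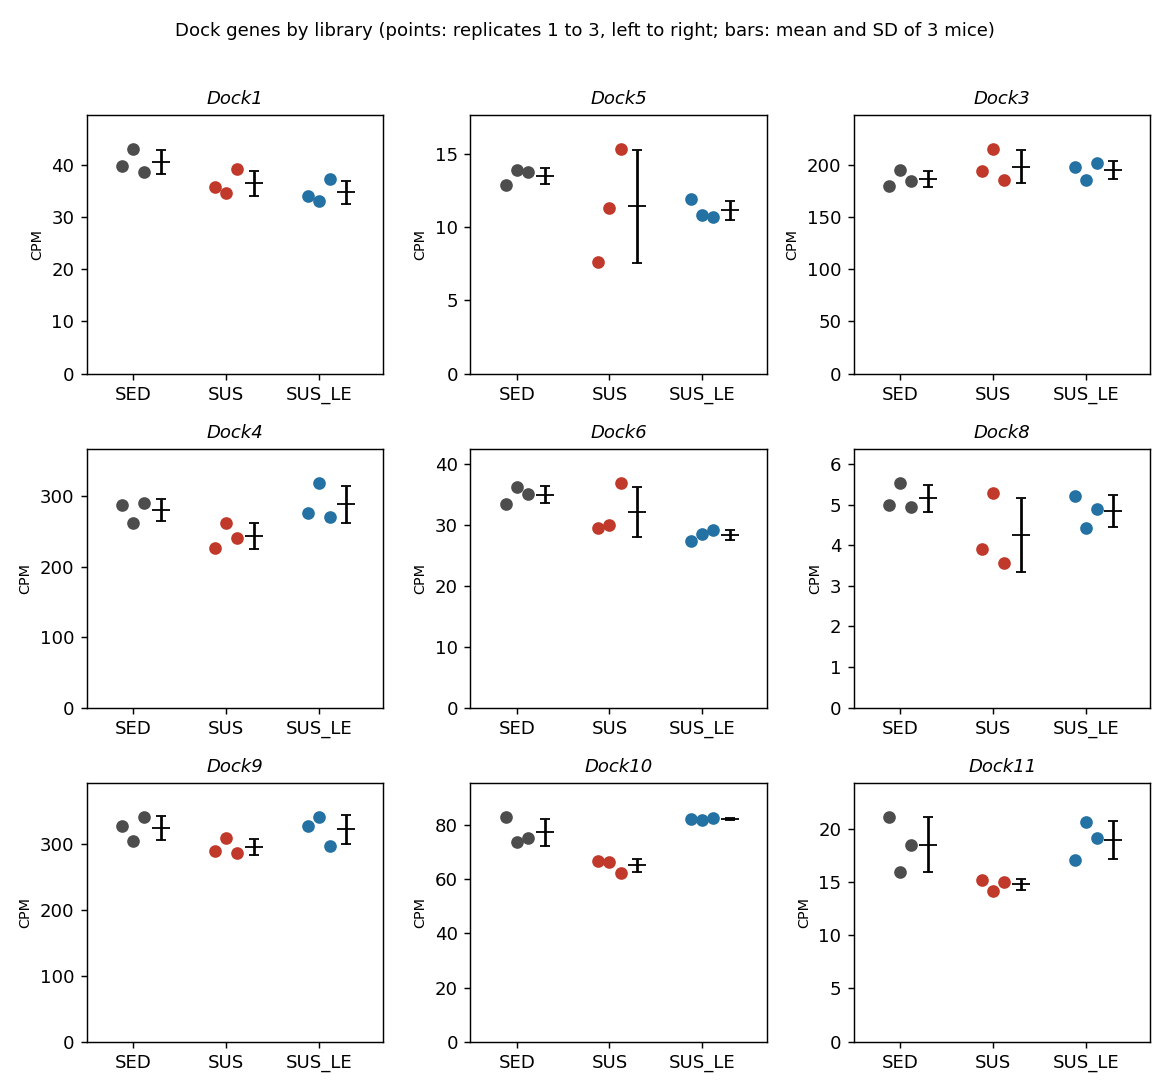
CPM of the 9 Dock genes in each library (points, replicates 1 to 3 from left to right in each group), with the mean and SD of 3 mice beside them; each axis starts at 0. The 3 SUS points of Dock10 (62.4 to 66.8 CPM) and of Dock11 (14.2 to 15.2 CPM) lie below all points of the other groups, and Dock5 is most spread out in SUS (7.63 to 15.4 CPM).

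In subfamily B, Dock4 had its lowest mean in SUS and Dock3 its highest. Dock4 is a Rac exchange factor of neurite and spine growth. CPM values of Dock4 were 287.4, 262.0 and 290.9 (SED), 226.1, 262.3 and 240.9 (SUS) and 276.8, 319.0 and 269.8 (SUS_LE). SUS 2 overlapped SED 2 by a small margin, while all SUS_LE values were above all SUS values. The log2 fold change of Dock4 was −0.20 (SE 0.07, −0.35 to −0.06, edgeR adjusted p = 0.227) for SUS against SED. For SUS_LE against SUS it was 0.25 (SE 0.07, 0.10 to 0.39, edgeR adjusted p = 0.148), 18.7% higher. DESeq2 called this difference (adjusted p = 0.0312), as did edgeR with no filter on low counts (adjusted p = 0.00574) and edgeR with a choroid plexus score as a covariate (0.31, adjusted p = 0.0148). Over the 20 alternatives run the adjusted p of Dock4 in that comparison ranged from 0.00574 to 0.412. With no filter Dock4 was also called lower in SUS than in SED (edgeR adjusted p = 0.0421). The share of all genes called with no filter or with the covariate was not counted, so these calls stand without it.

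CPM values of Dock3 were 179.5, 194.8 and 184.2 (SED), 194.4, 215.3 and 185.0 (SUS) and 198.0, 185.3 and 201.7 (SUS_LE). Its groups overlapped in every comparison, and it was the only one of the 9 genes whose log2 fold change for SUS against SED was above 0 (0.09, −0.03 to 0.21, edgeR adjusted p = 0.539). The other comparisons of Dock3 gave −0.02 (−0.15 to 0.10, edgeR adjusted p = 0.900) for SUS_LE against SUS and 0.07 (−0.06 to 0.19, edgeR adjusted p = 0.872) for SUS_LE against SED.

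Dock1 of subfamily A and Dock6 of subfamily C had their lowest means in the exercised mice. Dock6 is an exchange factor for both Rac and Cdc42 known in axon growth. CPM values of Dock6 were 33.4, 36.2 and 35.1 (SED), 29.4, 30.0 and 36.9 (SUS) and 27.4, 28.5 and 29.1 (SUS_LE). All SUS_LE values lay below all SED values and all SUS values. The log2 fold change of Dock6 was −0.30 for SUS_LE against SED (SE 0.08, −0.48 to −0.12, edgeR adjusted p = 0.456), −0.18 for SUS_LE against SUS (SE 0.09, edgeR adjusted p = 0.360) and −0.12 for SUS against SED (SE 0.08, edgeR adjusted p = 0.569). The comparisons with SUS rested on single libraries: without SUS 3 they were −0.07 for SUS_LE against SUS and −0.24 for SUS against SED, and the latter was −0.06 without SUS 1 and −0.08 without SUS 2. The difference of SUS_LE from SED was called when the edgeR fit held only those 2 groups (adjusted p = 0.0268) or had no filter (adjusted p = 0.0342), and over 20 alternatives the adjusted p ranged up to 0.964. The share of all genes called in these fits was not counted. Summed choroid plexus markers were 3253 to 4771 CPM in SED and 95.6 to 1655 CPM in SUS_LE. With the choroid plexus score as a covariate the log2 fold change of Dock6 for SUS_LE against SED was −0.18. The score did not overlap between these groups (1.23 to 1.79 in SED, −2.50 to 0.098 in SUS_LE), so score and group can hardly be told apart here.

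CPM values of Dock1 were 39.8, 43.0 and 38.6 (SED), 35.7, 34.5 and 39.1 (SUS) and 33.9, 33.0 and 37.2 (SUS_LE). The SUS_LE values did not overlap the SED values (log2 fold change −0.22, SE 0.08, −0.38 to −0.06, edgeR adjusted p = 0.617). The SUS values of Dock1 overlapped both groups (−0.15 against SED, edgeR adjusted p = 0.405, and −0.07 for SUS_LE against SUS, edgeR adjusted p = 0.723). With the choroid plexus score as a covariate the log2 fold change of Dock1 for SUS_LE against SED was −0.21, with the limit given for Dock6.

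Dock5 and Dock8, the least abundant members, had wide spreads within SUS and wide intervals. Dock5 is a Rac exchange factor known from osteoclasts. CPM values of Dock5 were 12.8, 13.9 and 13.8 (SED), 7.63, 11.3 and 15.4 (SUS) and 11.9, 10.8 and 10.7 (SUS_LE). The SUS values ran from the lowest to the highest of the 9 libraries. In SUS 1 to 3 Ttr, the thyroid hormone carrier of choroid plexus epithelium, stood at 27.4, 2659 and 6085 CPM, the same order as Dock5. In SED (Ttr 4310, 3543 and 2935 CPM) and in SUS_LE (83.2, 1509 and 59.6 CPM) the orders of Ttr and Dock5 differed. With the choroid plexus score as a covariate the log2 fold change of Dock5 for SUS_LE against SED was 0.14 in place of −0.28 (edgeR adjusted p = 0.831 without the covariate). As for Dock6, the score did not overlap between these groups, so score and group can hardly be told apart. The log2 fold change of Dock5 for SUS against SED was −0.24 (−0.65 to 0.17, edgeR adjusted p = 0.628), −0.02 without SUS 1 and −0.52 without SUS 3. Dock8, whose loss causes an immunodeficiency, stood between 4.93 and 5.54 CPM in SED, between 3.56 and 5.27 in SUS and between 4.42 and 5.20 in SUS_LE. Its groups overlapped throughout, and for SUS against SED the interval was −0.65 to 0.10 (log2 fold change −0.28, edgeR adjusted p = 0.542). Without SUS 2 the log2 fold change of Dock8 was −0.46, and without SUS 3 it was −0.17.

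**Figure D3:**
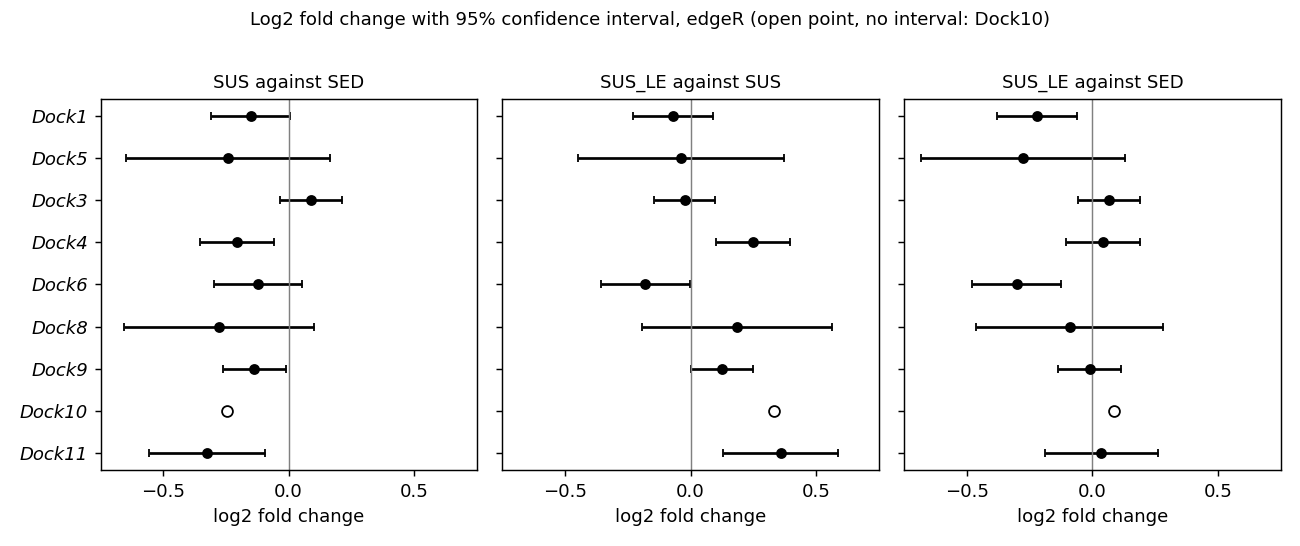
Log2 fold change of each Dock gene in the 3 comparisons, with the 95% confidence interval from the edgeR fit; Dock10, the open point, has no interval because it was picked on SUS_LE against SUS. Dock4 and Dock11 lie to the left in SUS against SED and to the right in SUS_LE against SUS, and Dock6 lies to the left in all 3 panels.

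Counted over the family, 7 of the 8 tested genes stood lower in SUS than in SED (50.1% of all genes) and 1 higher (49.9%), with a median log2 fold change of −0.18 beside −0.000386 over all 16106 genes. Of these 8 genes 0 passed an edgeR adjusted p of 0.05, as did 0% of all genes. At an unadjusted edgeR p under 0.05 there were 3, all lower (Dock4, Dock9 and Dock11), where 13.1% of all genes were under it in either direction, 6.26% with lower and 6.83% with higher values. Dock11 was the one gene of the 8 whose SUS values all lay below the SED values, as in 8.56% of all genes (9.72% lay all above, 18.3% either). DESeq2 called 0 of the 8 and limma voom 0, and 5 of the 8 had no adjusted p under the independent filtering of DESeq2. DESeq2 called 4.51% of the 3928 genes that had one.

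Between SUS_LE and SUS the 8 tested genes divided evenly, 4 higher (50.3% of all genes) and 4 lower (49.7%), with a median log2 fold change of 0.05 beside 0.00112 over all genes. Again 0 of 8 passed by edgeR (0% of all genes) and 0 by limma voom. At an unadjusted edgeR p under 0.05 there were Dock4, Dock9 and Dock11 with higher values (7.2% of all genes) and Dock6 with lower values (6.49%), 4 of the 8 in all against 13.7% of all genes. The SUS_LE values of Dock4 and Dock11 all lay above the SUS values (8.61% of all genes) and those of Dock6 all below (8.38%), 3 of 8 against 17% of all genes. DESeq2 called Dock4, while 4 of the 8 had no adjusted p, and 3.57% of the 5177 genes with an adjusted p were called. The SUS libraries enter this comparison and the one with SED, so a low value there moves both.

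Between SUS_LE and SED 5 of the 8 stood lower (47.1% of all genes) and 3 higher (52.9%) (median −0.05, beside 0.00854 over all genes). By edgeR 0 of 8 passed (0% of all genes), by DESeq2 0 (0.0994% of all genes with an adjusted p) and by limma voom 0. At an unadjusted edgeR p under 0.05 there were Dock1 and Dock6, both lower (3.86% of all genes, with 2.79% higher and 6.64% in either direction). The SUS_LE values of Dock1, Dock5 and Dock6 all lay below the SED values (8.64% of all genes), and 0 of the 8 lay all above (7.54%, 16.2% either). For a difference among the 3 groups 0 of 8 passed by edgeR, where the smallest adjusted p was 0.212 for Dock4, and Dock1, Dock4, Dock6 and Dock11 were under an unadjusted edgeR p of 0.05 (13.5% of all genes). DESeq2 called Dock4 in that test (adjusted p = 0.0399), as 4.65% of genes with an adjusted p.

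Over the 9 libraries most members varied in 2 sets, which were read from pairs of genes and not tested. Dock3 and Dock8 belonged to neither. The log2 CPM of Dock4 followed that of Dock9 (Pearson r 0.90, Spearman rho 0.92), and Dock10 followed Dock11 (0.87 and 0.90). Dock4 also followed Dock11 (0.79 and 0.77). Dock9 followed Dock10 (0.65 and 0.48) and Dock11 (0.65 and 0.57) less closely. Dock1 followed Dock6 (0.87 and 0.83), and Dock5 followed Dock6 (0.72 and 0.77). Between the sets values were low, as for Dock6 with Dock10 (−0.40 and −0.50), and Dock3 ran against Dock11 (−0.58 and −0.45). These are descriptions over 9 libraries that share groups, tissue pieces and depth, and the group differences described above are part of them.

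**Figure D4:**
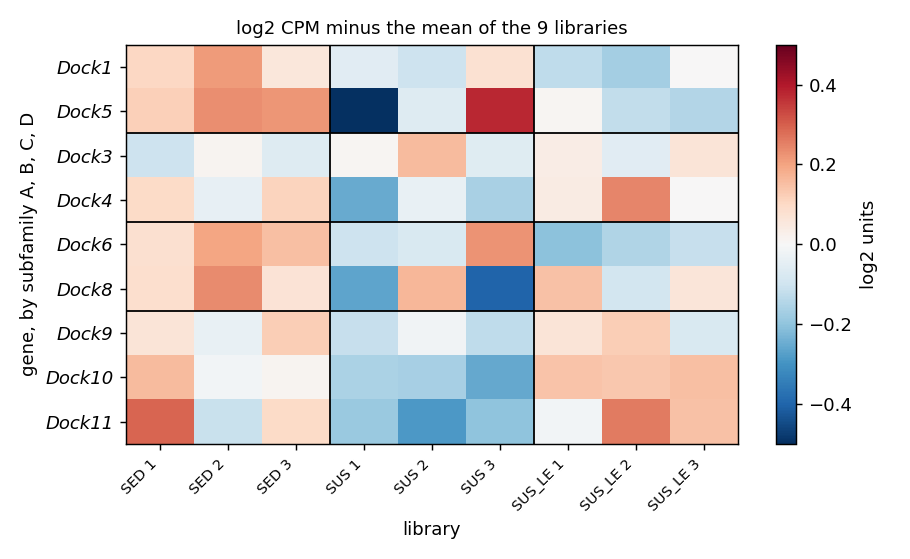
Log2 CPM of each Dock gene in each library minus its mean over the 9 libraries, with lines between groups and between subfamilies A to D. The SUS columns are blue for Dock10 and Dock11, and blue or, in SUS 2, near white for Dock4 and Dock9. The SUS_LE columns are blue or near white for Dock1, Dock5 and Dock6.

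The parts of GC content and transcript length in the Dock differences were not tested, and their values are given here. Over all tested genes with a reference transcript the log2 fold changes followed GC content, with a Spearman rho of 0.37 for SUS against SED and −0.40 for SUS_LE against SUS (14697 genes, which are not independent replicates). With transcript length the Spearman rho was −0.24 for SUS against SED and 0.13 for SUS_LE against SUS. The median transcript had 50.0% GC and 3178 bases. All Dock transcripts were longer than that median, from 6665 bases (Dock11) to 9988 bases (Dock5). GC content was 41.5% for Dock11, 44.8% for Dock10, 46.1% for Dock4 and 58.4% for Dock6, and between 48.6% and 51.4% for the other members. Among the 8 tested members Dock11 and Dock4 had the lowest GC content and the highest log2 fold changes for SUS_LE against SUS, and Dock6 the highest GC content and the lowest log2 fold change. With trends of GC content and length removed from each library, the log2 fold change for SUS_LE against SUS was nearer to 0 for Dock11 (0.26), Dock10 (0.26), Dock4 (0.19), Dock9 (0.09) and Dock6 (−0.09). It was farther from 0 for Dock1 (−0.10), Dock3 (−0.04), Dock5 (−0.07) and Dock8 (0.19). For SUS against SED it was nearer to 0 for Dock11 (−0.21), Dock10 (−0.16), Dock4 (−0.12), Dock9 (−0.08), Dock1 (−0.10), Dock5 (−0.17) and Dock8 (−0.25). It was farther from 0 for Dock6 (−0.18) and Dock3 (0.14). The trends of GC content and length were removed together, so their parts in these changes cannot be told apart.

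Library totals ran from 14172344 to 15582304 counts. Camk2a, a kinase of forebrain pyramidal cells, stood at 2929 ± 150 CPM in SED. Calb1, found in dentate granule cells and CA neurons, stood at 115 ± 8.19 CPM in SED. No other brain region was compared, so these levels do not test the tissue label. Markers of other cells are given as counts and sums, and in the lists given here 0 markers passed an edgeR adjusted p of 0.05 in each comparison. In bulk tissue fewer cells of a type and less RNA per cell cannot be told apart. Oligodendrocyte markers stood lower in SUS than in SED in 13 of 13 genes (summed level 2716 to 3098 CPM against 3227 to 3448, Mbp the most abundant) and 12 of 13 were higher with exercise than without (2794 to 3448 CPM in SUS_LE). Endothelial markers stood lower in SUS in 7 of 8 genes and 6 of 8 were higher with exercise (summed level 249 to 270 CPM in SED, 229 to 256 in SUS and 271 to 286 in SUS_LE, Flt1 the most abundant). Dentate granule cell markers stood lower in SUS in 5 of 5 and higher in SUS_LE in 5 of 5, with overlapping sums (260 to 316, 235 to 279 and 279 to 313 CPM). Neuron markers, led by Camk2a, stood higher in SUS than in SED in 7 of 8 genes (DESeq2 called 2, beside 4.51% of genes with an adjusted p). They stood higher in SUS_LE than in SED in 8 of 8, in 5 of them without overlap (7.54% of all genes). Their sums overlapped (8440 to 8775, 8437 to 9404 and 8629 to 9455 CPM). So did oligodendrocyte precursor markers, led by Pdgfra (198 to 209, 193 to 202 and 192 to 203 CPM), and meningeal markers, led by Dcn (154 to 157, 112 to 188 and 143 to 204 CPM). Astrocyte markers stood lower in SUS than in SED in 5 of 9 genes and higher in 4, and 7 of 9 were higher with exercise than without. Their sum, most of it the glutamate transporter Slc1a2 (4003 CPM in SED), was 5375 to 5657 CPM in SED, 5003 to 5189 in SUS and 5470 to 5702 in SUS_LE. Choroid plexus markers, led by Ttr, summed to 3253 to 4771 CPM in SED, 57.4 to 6644 in SUS and 95.6 to 1655 in SUS_LE. Every marker of these lists had counts in every library. DESeq2 also called 3 oligodendrocyte, 2 astrocyte and 1 dentate markers lower in SUS than in SED. Between SUS_LE and SUS it called 3, 3 and 1 of these higher and 1 neuron marker lower (3.57% of genes with an adjusted p). Without overlap, 8 of 13 oligodendrocyte markers lay lower in SUS than in SED (8.56% of all genes). All 9 choroid plexus markers lay lower in SUS_LE than in SED (8.64%). Without the 3 libraries lowest in Ttr (SUS 1, SUS_LE 1 and SUS_LE 3), which leaves 1 SUS_LE library whose spread is taken from the others, the log2 fold change for SUS_LE against SUS was 0.51 for Dock11, 0.35 for Dock4 and 0.35 for Dock10. Over the 9 libraries log2 CPM followed the oligodendrocyte score in Dock8 (r 0.84, rho 0.73) and Dock9 (0.73 and 0.67), and the endothelial score in Dock11 (0.78 and 0.78) and Dock10 (0.71 and 0.77). The dentate score gave 0.76 and 0.70 for Dock11, 0.68 and 0.70 for Dock10, and 0.66 and 0.58 for Dock9. Log2 CPM followed the choroid plexus score in Dock5 (0.79 and 0.90) and Dock6 (0.79 and 0.80), which, like Dock1 (−0.81 and −0.75), ran against the neuron score. These libraries share their groups, and the part of these cell types in the Dock values was not tested.

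The partners, substrates and effectors of the Dock proteins are 111 genes in 5 lists, of which 110 passed the filter. By edgeR 0 of the 110 passed an adjusted p of 0.05 in each of the 3 comparisons (0% of all genes). For SUS against SED 9 were higher and 12 lower at an unadjusted edgeR p under 0.05, with a median of −0.04. Of all genes 6.83% were higher and 6.26% lower at that p (13.1% in either direction). For SUS_LE against SUS 17 were higher (7.2% of all genes) and 5 lower (6.49%, 13.7% in either direction), with a median of 0.04. For SUS_LE against SED 5 were higher (2.79%) and 7 lower (3.86%, 6.64% in either direction), with a median of 0.01. DESeq2 called 2 (4.51% of all genes with an adjusted p), 3 (3.57%) and 0 (0.0994%) of them, where 58, 47 and 0 had no adjusted p, and limma voom called 0 in each.

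Among the adaptors (SD, n = 3 throughout), Elmo2, which binds Dock proteins of subfamilies A and B and frees them from self-inhibition, ranged from 90.6 to 99.6 CPM in SED, 95.9 ± 0.957 CPM was its mean in SUS and 101 ± 9.05 CPM in SUS_LE. Its relative Elmo1 stood at 55.1 ± 6.36, 64.1 ± 7.41 and 61.9 ± 5.49 CPM (log2 fold change 0.22 for SUS against SED, SE 0.10, edgeR adjusted p = 0.380). Crkl, an adaptor that couples tyrosine kinase signals to Dock1, stood at 42.0 ± 0.726 CPM in SED, 38.0 ± 0.985 in SUS and 43.2 ± 1.42 in SUS_LE. Its SUS values lay below all others (−0.14 against SED, edgeR adjusted p = 0.351, and 0.18 for SUS_LE against SUS, edgeR adjusted p = 0.214). Crk of the same kind stood at 121 ± 0.479, 116 ± 5.91 and 121 ± 3.38 CPM, and the docking protein Bcar1 at 36.2 ± 2.63, 32.0 ± 3.04 and 33.0 ± 5.30 CPM. Adgrb1, an engulfment receptor upstream of Elmo and Dock1 that also sits at synapses, stood at 246 ± 9.79, 277 ± 21.4 and 240 ± 10.3 CPM. DESeq2 called Adgrb1 lower in SUS_LE than in SUS (log2 fold change −0.21, DESeq2 adjusted p = 0.0359, edgeR adjusted p = 0.145).

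Of the GTPases, Rac1 stood at 278 ± 9.82 CPM in SED, 269 ± 13.7 in SUS and 294 ± 4.26 in SUS_LE, and its SUS_LE values lay above all others (0.12 against SUS, edgeR adjusted p = 0.294). Cdc42 stood at 217 ± 7.05, 223 ± 6.46 and 230 ± 1.78 CPM (0.04 for SUS_LE against SUS, edgeR adjusted p = 0.746). Rac3, the neuronal Rac, stood at 5.08 ± 0.267, 6.31 ± 1.38 and 5.12 ± 1.39 CPM, and Rhog, which recruits Elmo, at 12.8 ± 0.733, 12.4 ± 1.39 and 12.1 ± 1.26 CPM. For these GTPases the smallest edgeR adjusted p in any comparison was 0.294.

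Of the 28 exchange factors of other types, 18 stood lower in SUS than in SED (50.1% of all genes), with a median log2 fold change of −0.04. Higher in SUS_LE than in SUS were 19 (50.3% of all genes), with a median of 0.05. The SUS libraries enter both counts. Prex2 is a Rac exchange factor of the Dbl type. CPM values of Prex2 were 75.8, 88.8 and 93.7 (SED), 61.1, 70.2 and 72.6 (SUS) and 77.2, 83.6 and 91.2 (SUS_LE). Its SUS values lay below all others. DESeq2 called Prex2 lower in SUS than in SED (−0.34, DESeq2 adjusted p = 0.0161, edgeR adjusted p = 0.162) and higher in SUS_LE than in SUS (0.31, DESeq2 adjusted p = 0.0359, edgeR adjusted p = 0.169). The synaptic exchange factors Kalrn (560 ± 11.3, 561 ± 28.9 and 576 ± 24.7 CPM), Tiam1 (134 ± 6.68, 137 ± 11.2 and 139 ± 6.45 CPM) and Trio (219 ± 7.74, 208 ± 0.928 and 218 ± 11.3 CPM) had a smallest edgeR adjusted p of 0.543 (Trio, SUS against SED).

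Among regulators that act against Rac and Cdc42, Arhgap33, a GTPase-activating protein of synapses, stood at 87.6 ± 8.30 CPM in SED, 104 ± 3.54 in SUS and 89.1 ± 6.87 in SUS_LE. DESeq2 called it higher in SUS than in SED (0.25, DESeq2 adjusted p = 0.0478, edgeR adjusted p = 0.165). Arhgdia, which holds Rac in the cytosol, stood at 149 ± 4.31, 169 ± 12.0 and 158 ± 5.37 CPM (0.19 for SUS against SED, edgeR adjusted p = 0.182). Of the effectors, Abi1, a subunit of the WAVE complex that links Rac to branched actin, stood at 156 ± 4.99, 144 ± 3.46 and 167 ± 8.76 CPM. DESeq2 called Abi1 higher in SUS_LE than in SUS (0.22, DESeq2 adjusted p = 0.0199, edgeR adjusted p = 0.116). Other subunits of that complex were Wasf1 (427 ± 22.7, 426 ± 30.7 and 450 ± 26.0 CPM) and Cyfip2 (1029 ± 39.9, 984 ± 72.9 and 1104 ± 38.3 CPM), with an edgeR adjusted p of 0.245 for Cyfip2 between SUS_LE and SUS. The kinases Pak1 (294 ± 8.13, 320 ± 18.3 and 319 ± 4.56 CPM) and Pak3 (184 ± 4.16, 189 ± 5.38 and 183 ± 15.6 CPM) are also effectors of Rac and Cdc42. Pak1 had an edgeR adjusted p of 0.313 between SUS and SED.

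**Figure D5:**
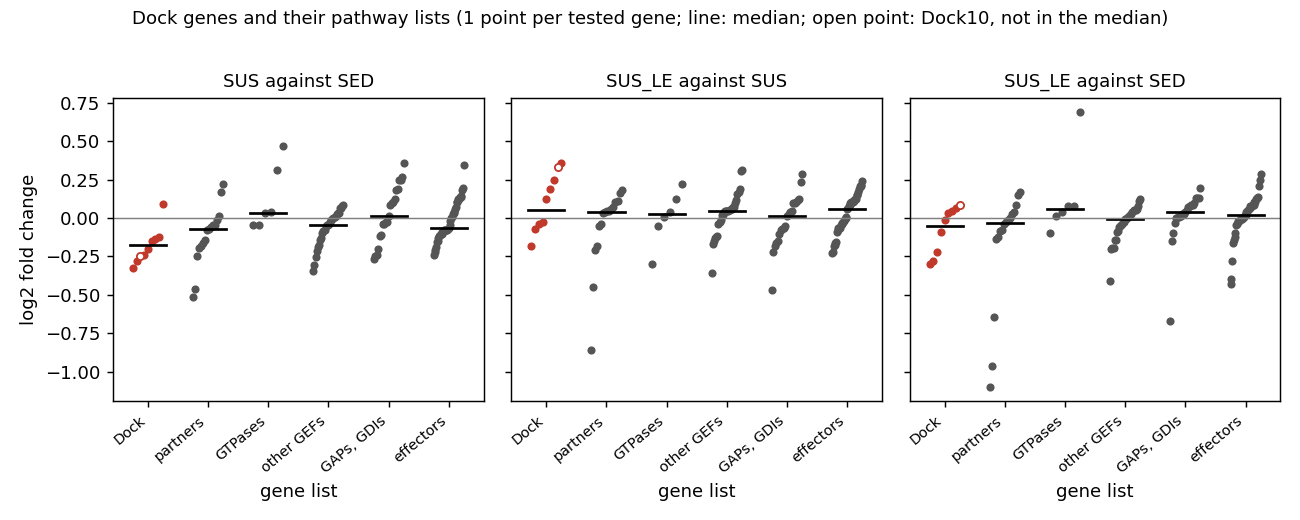
Log2 fold change of the 9 Dock genes (red) and of the tested genes of the 5 pathway lists (grey), 1 point per gene with the list's median as a line, in the 3 comparisons; Dock10 is the open point and is left out of the Dock median. That median is −0.18 for SUS against SED, 0.05 for SUS_LE against SUS, where 4 of the 8 genes lie on each side of 0, and −0.05 for SUS_LE against SED; none of the genes other than Dock10, which was not tested, passed an edgeR adjusted p of 0.05.

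The genes most like Dock10 were sought among the 12226 other genes with a mean log2 CPM above 2, by the Pearson correlation of log2 CPM over the 9 libraries. The first 5 were Nebl (r 0.97, Spearman rho 0.80), Hapln1 (0.96 and 0.93), Stxbp5 (0.96 and 0.85), Ssb (0.95 and 0.93) and Sertad2 (0.95 and 0.93). Nebl codes for a nebulin-like actin-binding protein, Hapln1 for a link protein of the hyaluronan matrix, Stxbp5 for the syntaxin-binding protein tomosyn, and Ssb for the La RNA-binding protein. CPM values of Nebl were 132, 120 and 126 (SED), 109, 113 and 110 (SUS) and 133, 133 and 131 (SUS_LE). The low SUS values of these genes come with the way they were chosen. With the group means removed the correlation with Dock10 was 0.90 for Hapln1, 0.90 for Sertad2, 0.87 for Ssb, 0.73 for Nebl and 0.59 for Stxbp5. These values too are part of the correlation by which the genes were chosen, so they are no separate check.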

How the data were processed

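Total RNA of each tissue piece (RNAiso Plus) went into CORALL V2 RNA-seq libraries, per the labels' protocols. The deposited files hold whole-number counts per gene symbol, not normalized, 1 file per library. The tools named are fastp, STAR and Salmon, with build GRCm39, per the submitters' processing notes; versions, annotation, strand setting, use of molecular identifiers and any rounding of Salmon estimates are not given in the sources used here. Without a stated strand setting, reads of Dock3 and of an antisense transcript that overlaps its exons by 1082 bases cannot be told apart.

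Counts were analysed in R 4.3.3 with edgeR 4.0.16 (filterByExpr, TMM factors, robust quasi-likelihood fit with a term for group and no other, over all 9 libraries, Benjamini-Hochberg adjustment over 16106 genes, threshold 0.05). DESeq2 1.42.0 (independent filtering at 0.05) and limma 3.58.1 (voom with quality weights) were alternatives. The common biological coefficient of variation was 0.0845. Log2 CPM used a prior count of 2. Transcript length and GC content came from GENCODE M21 by symbol (91.3% of tested genes). The edgeR script was tested on simulated data. Libraries of a group differed by a chi-square per degree of freedom of 2.70 to 14.6, so none was a duplicate. The smallest exact permutation p for 3 mice against 3 is 0.1.

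The members, gene lists and tests were chosen with earlier results of these data known. Named genes were all members, 17 genes of the pathway always given, pathway genes called by edgeR or DESeq2, the 5 genes most like Dock10, and the most abundant gene of each marker list; 1 marker list is not reported here. The motifs were chosen after the values were seen.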

Additional observations from a re-analysis of the deposited data

How the results depend on the processing

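Of the 8 tested Dock genes 0 passed by edgeR in each comparison and in the test among the groups. The share of all genes passing these tests was also 0%, and the same was so by limma voom. The count of Dock genes was also 0 under RLE and upper-quartile factors and without the robust step. It was 0 after removal of trends in GC content and length, and without any 1 library (0 to 0). Leaving out a library also lowers the power to call a gene, so these counts are no separate check of the family. With no filter on low counts 1 Dock gene passed in each of the comparisons, and 2 among the groups (Dock4 and Dock6). DESeq2 called 1 for SUS_LE against SUS and 1 among the groups, as did the choroid plexus covariate (1 and 1, Dock4 each time), and a fit of only the 2 groups compared called 1 for SUS_LE against SED (Dock6). Of the pathway genes, 0 by edgeR, DESeq2 called 2 for SUS against SED and 3 for SUS_LE against SUS. With no filter the counts were 2, 4 and 1 in the 3 comparisons, and with the covariate 3 for SUS_LE against SUS. The fit of only 2 groups gave 1 for SUS_LE against SED (Iqgap1, a scaffold of Rac and Cdc42 named after its values were seen). Leaving out 1 library gave 0 to 1 in each comparison: Iqgap1 without SUS 3 (SUS against SED and SUS_LE against SED) and Adgrb1 without SUS 2 (SUS_LE against SUS). For these alternatives other than DESeq2 and limma voom the share of all genes called was not counted. The cause of these changes was not tested.

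Some log2 fold changes changed sign between settings, and none of these passed. That of Dock5 for SUS_LE against SED was −0.28 in the main fit, where the values of these groups did not overlap. For SUS_LE against SED, Dock3 was −0.0058 without the 3 libraries lowest in Ttr, Dock5 0.14 with the covariate, and Dock9 0.073, 0.034 and 0.018 without those libraries, with the covariate and with GC and length trends removed. For SUS_LE against SUS, Dock5 was 0.22 with the covariate. Without 1 library, Dock3 ranged from −0.075 to 0.036 and Dock5 from −0.26 to 0.23 for SUS_LE against SUS, and Dock4 from −0.035 to 0.090, Dock9 from −0.054 to 0.045 and Dock11 from −0.061 to 0.14 for SUS_LE against SED. Replicate numbers are shared by the groups, and no pairing of mice was assumed. Deviations from the group means correlated from −0.19 to 0.34 between libraries with the same number and from −0.39 to 0.30 between others. The column headers number the exercised libraries otherwise than the labels, whose numbers were used here. With the replicate block 0 of the 8 Dock genes and 0 pathway genes passed in each comparison. With 3 mice a group and 52 to 79 counts per library, Dock8 allows no finer statement than its interval.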
